A study of Mus musculus with 17 samples.

Results

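Group 2 innate lymphoid cells (ILC2s) of mouse skin were taken as every cell of the 8 skin libraries that met a rule on its unique molecular identifiers (UMIs, each the tag of 1 captured RNA molecule). A cell had at least 200 genes detected, at most 20% of its UMIs from mitochondrial genes, at least 1 UMI of Gata3, at least 2 UMIs in all of Il5, Il13, Calca, Hlf and Il1rl1, no UMI of Cd3d, Cd3e or Trdc, and at most 1 UMI of the mast cell genes Mcpt4, Cma1 and Cpa3. The rule found 585 cells among 30085 skin cells that passed the first pair of limits. The cells were thus chosen by measured RNA levels, so the levels of those genes, and the contrast with T cells in the genes used to leave T cells out, describe how the cells were chosen and were not tested.

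ILC2s are lymphocytes without a T-cell or B-cell receptor that live in barrier tissues such as skin, lung and gut. They depend on the transcription factors GATA3 and RORα, and they answer epithelial signals (IL-33 through ST2, the product of Il1rl1, and in skin also IL-18 and TSLP) by releasing the type 2 cytokines IL-5 and IL-13. In skin they are known for roles in eosinophil supply, in dermatitis and in fibrosis models. Calca encodes the neuropeptide CGRP and its relative calcitonin, and Hlf encodes a PAR bZIP transcription factor.

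The cells came from the sorted GFP+ fraction of back skin of 8-week-old mice that all carried PDGFRb-Cre and the Z/EG reporter, which turns on GFP after Cre has acted. SARAWT mice lacked the transgene, and SARATg mice also carried a human ZFYVE9 (SARA) cDNA behind a stop cassette that Cre removes. Each genotype received subcutaneous PBS or subcutaneous bleomycin at 20 mg/kg, a drug used to model scleroderma. The labels give 3 injections per week for 2 weeks, whereas the methods describe daily injections followed by a rest before harvest. The groups were SARAWT PBS (n = 3 libraries), SARAWT bleomycin (n = 3), SARATg PBS (n = 1) and SARATg bleomycin (n = 1). The Cre is constitutive and its promoter is active in part of the embryonic leukocyte lineage, so the sort holds GFP+ leukocytes only where their ancestors had expressed it, and a share of sorted cells is not a share of the skin's ILC2s. How many mice went into a library is not given in the sources used here, and p-values measure the spread between these libraries.

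The 8 libraries held 3355217 to 69765525 UMIs, with 781 to 6548 kept cells and a median of 1271 to 11292.5 UMIs per kept cell. The SARAWT PBS 2 library was the smallest, and 55.5% of its barcodes also occurred in another skin library, against 0.594% to 22.1% elsewhere. Of the 585 cells, 13 sat on such barcodes. Reads that may come from the transgene were found in libraries labelled SARAWT. Zfyve9 is the mouse gene, and where human ZFYVE9 is not listed, whether Zfyve9 reads came from the human cDNA was not tested. Zfyve9 was at 620 CPM (the gene's UMIs scaled to a total of 1000000) over all kept cells of the library labelled SARAWT PBS 3, above the 314 and 224 CPM of SARATg PBS 1 and SARATg bleomycin 1, and at 7.71 to 25.9 CPM in the other 5. Human ZFYVE9, listed in only 4 libraries, was at 838 CPM in the library labelled SARAWT PBS 1, against 87.4 to 187 CPM in the other 3, which are also labelled SARAWT. The libraries labelled SARAWT PBS 1 and PBS 3, with the highest levels, are treated as in doubt below, and the source of the lower human ZFYVE9 reads in SARAWT PBS 2, bleomycin 1 and bleomycin 2 was not tested. Library names below are the labels', and the main counts and shares that rest on these libraries are also given without them where a fit or a value was possible.

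Type 2 cytokine genes sit side by side on mouse chromosome 11 (mm10). Il4 spans chr11:53612460-53618665, Il13 chr11:53631323-53634702 and Il5 chr11:53720794-53725103, with Rad50 (chr11:53649519-53707319) between the last pair, and Csf2 lies at chr11:54247270-54249899. The 250 bases before the start are shown for Il5, Il13 and Csf2, the cytokine genes by which the states described below differ, and before an internal start of Il1rl1, the IL-33 receptor gene. The sequences are from RefSeq on GRCm38.p6 (mm10), read 5′ to 3′ on the gene's strand. Capitals mark a 6-letter GATA-type word on either strand, that is the letters GATA with A or T before them and A or G after them.
Il5, chr11:53720544-53720793, plus strand: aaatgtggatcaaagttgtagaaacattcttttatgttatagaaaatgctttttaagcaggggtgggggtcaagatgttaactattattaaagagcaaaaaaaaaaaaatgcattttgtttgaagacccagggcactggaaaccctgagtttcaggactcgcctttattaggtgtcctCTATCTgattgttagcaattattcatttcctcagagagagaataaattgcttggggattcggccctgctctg
Il13, chr11:53634703-53634952, minus strand: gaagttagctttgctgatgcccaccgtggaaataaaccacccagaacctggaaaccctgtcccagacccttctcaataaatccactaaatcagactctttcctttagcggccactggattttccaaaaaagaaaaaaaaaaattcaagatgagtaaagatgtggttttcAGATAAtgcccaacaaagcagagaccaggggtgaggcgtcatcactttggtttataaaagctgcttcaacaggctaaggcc
Csf2, chr11:54249900-54250149, minus strand: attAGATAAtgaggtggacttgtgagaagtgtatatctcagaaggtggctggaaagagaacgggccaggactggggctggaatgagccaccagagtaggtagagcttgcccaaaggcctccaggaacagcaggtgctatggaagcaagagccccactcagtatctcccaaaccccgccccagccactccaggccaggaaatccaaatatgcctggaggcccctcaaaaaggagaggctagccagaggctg
Il1rl1, chr1:40429320-40429569, plus strand, within the gene (chr1:40404864-40465418): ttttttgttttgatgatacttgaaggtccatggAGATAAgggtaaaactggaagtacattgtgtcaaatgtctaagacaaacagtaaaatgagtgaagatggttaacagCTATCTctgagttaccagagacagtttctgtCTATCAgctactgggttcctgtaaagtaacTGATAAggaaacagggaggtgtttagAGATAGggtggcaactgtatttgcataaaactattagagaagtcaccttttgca
The Il5 window held 1 match, 72 bases before the start, the Il13 window 1 at 81 bases and the Csf2 window 1 at 247 bases. The Il1rl1 window held 5 matches, at 217, 141, 110, 80 and 54 bases before that start, and the window before a further internal start of the gene (chr1:40439379-40439628) held 1, at 103 bases. The Calca window held 1 match, at 218 bases, and the windows before 2 starts of Il4 held 1 and 0. Of 32851 promoter windows of 250 bases, 26.5% held at least 1 match and 0.0426% held 5 or more. The Il1rl1 window shown was picked from that gene's windows for holding more than 1 match, so its place against these shares is no test. The windows of Areg, Hlf, Gata3, Kit and Ptgir held none of these words, which says nothing of whether GATA3 acts there. A match is a run of letters and was not tied to binding in these data.

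The label was set against markers that the rule did not use. Icos (a costimulatory receptor), Rora and Il7r (the IL-7 receptor) are lymphocyte genes that ILC2s share with T cells, so they separate lymphocytes from other cells but not ILC2s from T cells, whereas Krt5, Krt14, Krt10, Krt15 and Dsp mark keratinocytes. The cells fell into separate kinds on these sums, with the limits set after the values had been seen. Of the 585 cells, 421 (72.0%) were lymphoid, with fewer than 5 keratin-list UMIs and at least 3 UMIs of Icos, Rora and Il7r. Their median was 6592 UMIs per cell, and 393 of them (93.3%) held a UMI of the pan-leukocyte gene Ptprc. Another 141 cells (24.1%) were keratinocyte-like, with 10 to 2014 keratin-list UMIs and a median of 21407 UMIs in all. In those, Krt10 reached 12730 CPM and Krt1 6191 CPM, a Ptprc UMI occurred in 19 cells (13.5%) and an Icos UMI in 2. They met the rule mainly through Hlf: in 120 of the 141 the scored UMIs were all Hlf, and 135 had no UMI of Il5, Il13 or Calca. The last 23 cells (3.93%) were of neither kind. In 18 of them the scored UMIs were all Il1rl1, Cd74 stood at 6846 CPM and Col1a1 at 4403 CPM, and none had an Icos UMI. Rora stood at 216 CPM in the keratinocyte-like cells and at 1622 CPM in the lymphoid cells, and the low sum of Icos, Rora and Il7r in the remaining cells follows from how they were set apart. The results below name the lymphoid cells where they concern those alone.

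**Figure D1:**
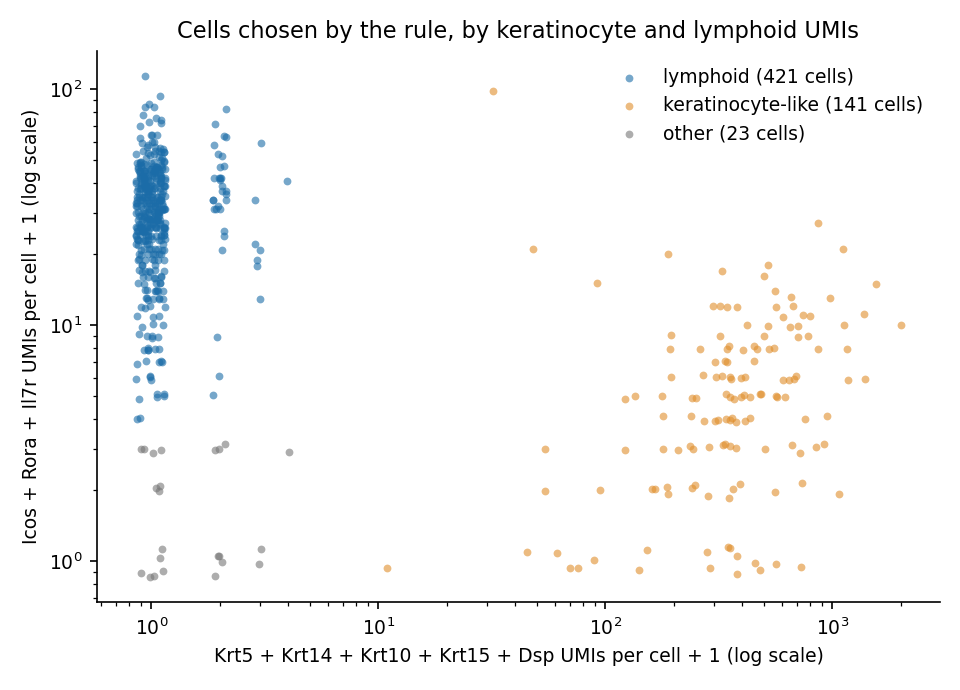
UMIs of the keratin list (Krt5, Krt14, Krt10, Krt15 and Dsp, x axis, UMIs + 1, log scale) against UMIs of Icos, Rora and Il7r (y axis, UMIs + 1, log scale) for each of the 585 cells, with a small random shift to separate points. The 421 lymphoid cells lie at the left and the 141 keratinocyte-like cells at the lower right, with the 23 remaining cells near the origin.

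The threshold of 2 scored UMIs fell within a range held mostly by keratinocyte-like cells. Just inside it, 75 cells scored exactly 2, of which 12 (16.0%) were lymphoid and 58 (77.3%) keratinocyte-like. Just outside it, 180 further cells scored 1 and met every other limit, of which 23 (12.8%) were lymphoid and 138 (76.7%) keratinocyte-like. Among the 510 cells scoring 3 or more, 409 (80.2%) were lymphoid. The limit on T-cell genes also had cells beside it. A further 43 cells of the lymphoid type had exactly 1 UMI of Cd3d, Cd3e and Trdc, and 369 had 2 or more.

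T-cell receptor complex genes that the rule left unused were present at a low level in many of the lymphoid cells. A UMI of Cd3g, which encodes a subunit of the CD3 complex, was found in 251 of 421 (59.6%). Counting Cd3g with the γ-chain constant genes Tcrg-C1, Tcrg-C2 and Tcrg-C4, 115 cells had no UMI, 145 had 1 or 2, 104 had 3 to 5, 44 had 6 to 10 and 13 had more than 10. At 88.3 to 312 CPM over the 5 libraries with at least 10 lymphoid cells, Cd3g was below its range of 757 to 1544 CPM in γδ T cells, a gap the rule helped to set through Cd3d and Cd3e. In the 115 cells without such UMIs and the 57 with 6 or more, Icos stood at 1031 and 1409 CPM, Rora at 1342 and 1506 CPM and Il7r at 627 and 838 CPM, the genes by which lymphoid cells were set apart. Of the genes that the rule counted, Gata3 stood at 1237 and 1152 CPM and Il1rl1 at 584 and 227 CPM in the same cells, as a description. Il23r, the IL-23 receptor gene of type 17 cells, was detected in 0 of 421 lymphoid cells, which allows up to 0.713% of cells with a UMI and sets no limit on cells expressing the gene, against 48.3% of γδ T cells at a similar depth (medians of 6592 and 6769 UMIs). Cd5 was found in 1 cell and Trac, the α-chain constant gene, in 52. Il17f was found in 34 cells. Il17a UMIs numbered 128 in 23 cells, and 3 of those cells held 61 of them. Markers of the αβ T coreceptor CD8 (Cd8a, Cd8b1) were at 0. The list of other T-cell genes summed to 326 to 1116 CPM in the lymphoid cells of those 5 libraries, against 160 to 513 CPM in kept cells outside the rule, 2259 to 3520 CPM in γδ T cells and 1795 to 3827 CPM in αβ T cells. The lymphoid range thus lay below both T-cell ranges and overlapped that of the other kept cells at its lower end, a gap that the rules of the cell types helped to set.

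Over the 5 libraries, 14 of the 16 genes of the ILC2 marker list averaged at least 50 CPM in lymphoid cells, and the summed list reached 6315 to 13820 CPM. That list holds the rule's own genes and those that set the lymphoid cells apart, so its height is a description and no check of the label. In the keratinocyte-like cells the same sum was 637 to 1232 CPM, and in kept cells outside the rule 874 to 1478 CPM. In γδ T cells it was 4045 to 5578 CPM and in αβ T cells 3573 to 11848 CPM, a range that overlapped that of the lymphoid cells. The markers of the NK cell and ILC1 list summed to 88 to 160 CPM, and those of the ILC3 list to 12 to 156 CPM. The mast cell list summed to 63 to 293 CPM, led by Kit, with Cma1, Tpsb2, Ms4a2, Fcer1a and Mrgprb1 at 0, a low sum that the rule's limit on Mcpt4, Cma1 and Cpa3 helped to set. Ranges from stromal and antigen-presenting cells were wider: the dendritic list, led by Cd74, summed to 3370 to 10238 CPM (20104 to 29587 in kept cells outside the rule) and the fibroblast list to 26 to 5889 CPM. Which of these UMIs came from free RNA in the droplets was not tested.

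The rule's own genes are given next for each library, and the 5 libraries with at least 10 lymphoid cells are called the 5 larger libraries. In lymphoid cells Gata3 stood at 1369, 1855 and 1369 CPM in SARAWT PBS 1 to 3, at 1679, 1055 and 1420 CPM in SARAWT bleomycin 1 to 3, and at 1975 and 743 CPM in SARATg PBS 1 and SARATg bleomycin 1. Il5 stood at 495, 0 and 543 CPM in SARAWT PBS 1 to 3, at 726, 1369 and 1112 CPM in SARAWT bleomycin 1 to 3, and at 1643 and 411 CPM in the SARATg pair. Il13 stood at 571, 0 and 209 CPM with PBS, at 348, 113 and 208 CPM with bleomycin, and at 567 and 51.7 CPM in the SARATg pair. The value of 0 in SARAWT PBS 2 comes from a single lymphoid cell, and SARAWT bleomycin 1 and 2 had 4 and 6. Among the 5 larger libraries Il13 was highest in the libraries labelled SARAWT PBS 1 and SARATg PBS 1 and lowest in SARATg bleomycin 1.

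Calca stood at 274, 0 and 833 CPM in SARAWT PBS 1 to 3, at 756, 138 and 1085 CPM in SARAWT bleomycin 1 to 3, and at 431 and 694 CPM in the SARATg pair. Hlf stood at 713, 1987 and 1219 CPM with PBS, at 227, 465 and 1577 CPM with bleomycin, and at 1232 and 666 CPM in the SARATg pair. Calca was highest in SARAWT bleomycin 3 and lowest, among the 5 larger libraries, in the library labelled SARAWT PBS 1, the reverse of the place that library took for Il13. Il1rl1 ran from 222 CPM (SARATg bleomycin 1) to 841 CPM (SARATg PBS 1) in those 5. Gata3 was also present in αβ T cells, at 1574 CPM in SARATg PBS 1, where those cells carried 2234 CPM of Il5 and 1259 CPM of Il13.

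**Figure D2:**
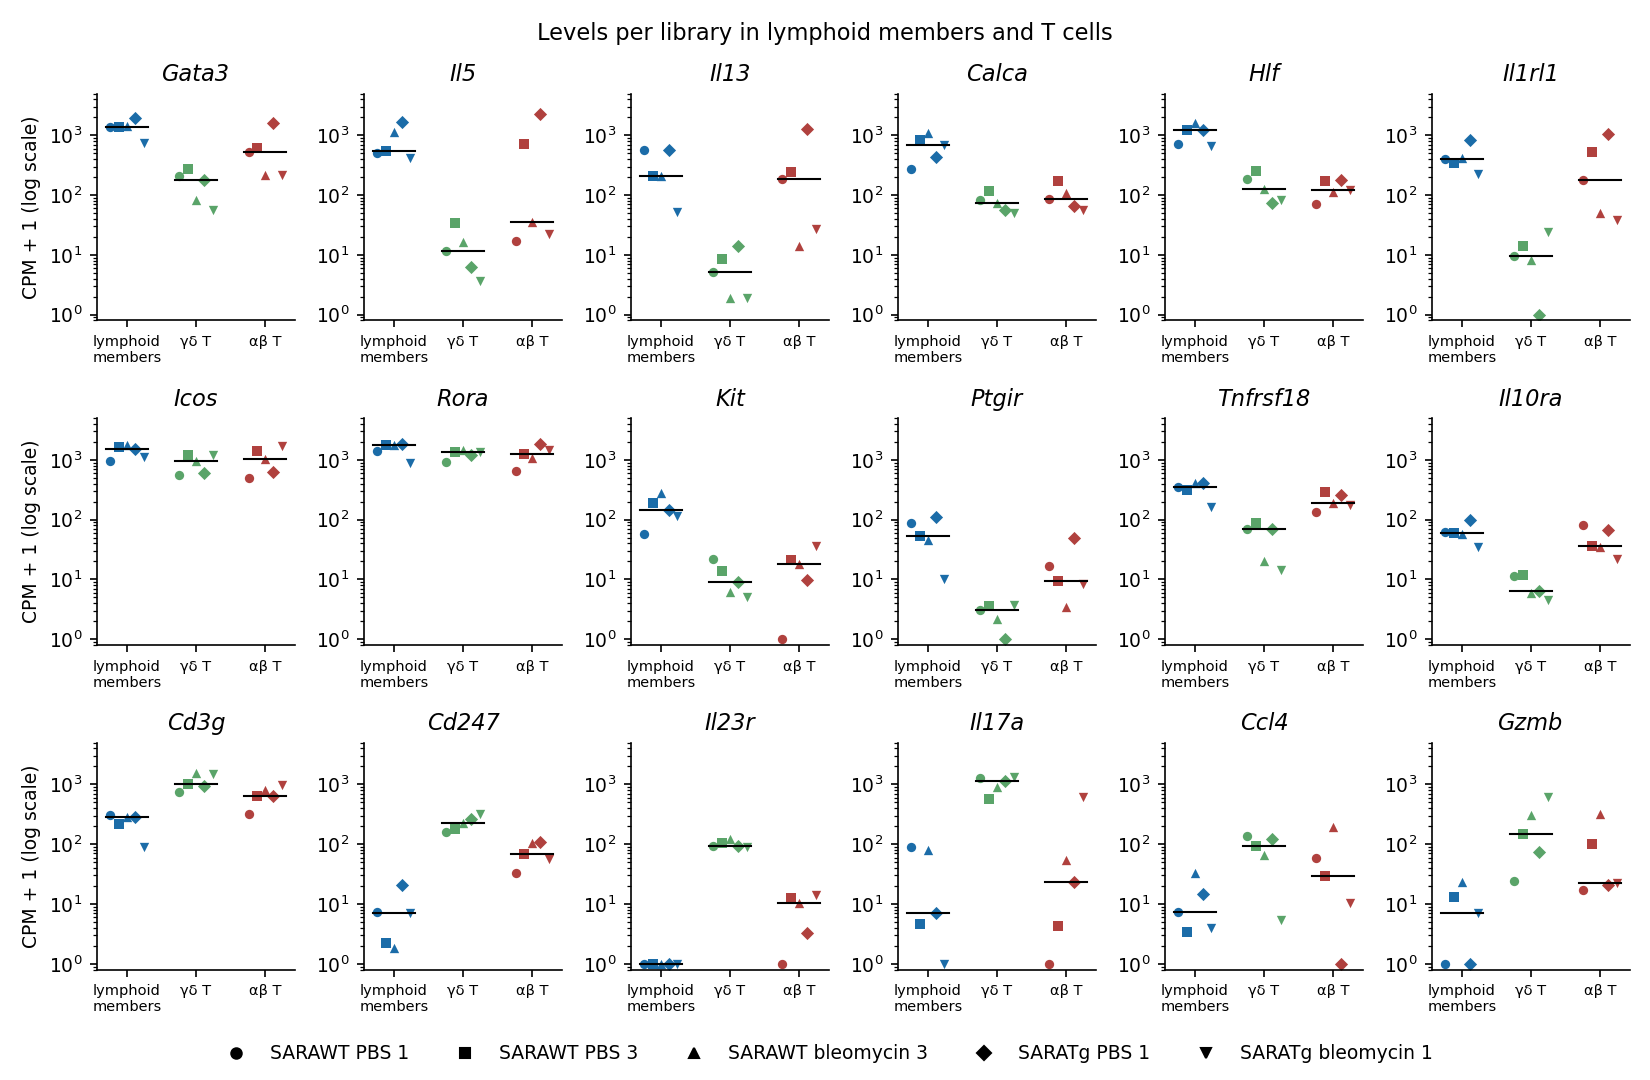
CPM + 1 (y axis, log scale) of 18 genes in lymphoid cells, γδ T cells and αβ T cells, 1 point per library for the 5 libraries with at least 10 lymphoid cells, with a line at the median. The top row holds rule genes, which were chosen to differ. Kit lies at 56.8 to 273 CPM in lymphoid cells and at 4.04 to 21.1 CPM in γδ T cells, and Il23r is at 0 in every lymphoid point.

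The question of whether bleomycin changed the share of these cells was put to the SARAWT libraries. In SARAWT PBS 1 to 3 they made up 1.59%, 0.384% and 2.48% of kept cells (65, 3 and 115 cells). In SARAWT bleomycin 1 to 3 they made up 0.371%, 0.646% and 2.70% (8, 14 and 177 cells). The groups overlapped throughout, with the lowest and the highest value both in the bleomycin group. The mean was 1.49% ± 1.05 with PBS and 1.24% ± 1.27 with bleomycin (SD, n = 3 each), and bleomycin minus PBS was -0.246 points (p = 0.9 by an exact two-sided permutation of the 6 libraries, for which 0.1 is the lowest value possible). Without the libraries labelled SARAWT PBS 1 and PBS 3 the difference was 0.856 points, from a single PBS library and with no test. Lymphoid cells alone made up 1.01%, 0.128% and 2.14% with PBS and 0.186%, 0.277% and 2.64% with bleomycin. In the single SARATg libraries all cells of the rule made up 3.34% of kept cells with PBS (152 cells, exact 95% interval 2.83 to 3.90) and 0.987% with bleomycin (51 cells, 0.736 to 1.30). The lymphoid cells among them made up 1.54% (1.20 to 1.94) and 0.523% (0.345 to 0.760). These intervals cover counting error only, and with 1 library per group the SARATg difference has no replicate check.

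As a share of themselves plus γδ and αβ T cells, the cells of the rule made up 53.7%, 30% and 26.7% in SARAWT PBS 1 to 3, and 7.02%, 6.51% and 19.6% in SARAWT bleomycin 1 to 3. Every PBS library lay above every bleomycin library, a difference of -25.8 percentage points (exact permutation p = 0.1, the smallest value possible). The libraries labelled SARAWT PBS 1 and PBS 3 are in that contrast, and SARAWT PBS 2 without them is 3 cells against 7 T cells. With lymphoid cells in place of all cells of the rule the groups overlapped, at 42.3%, 12.5% and 23.9% in SARAWT PBS 1 to 3 and at 3.64%, 2.90% and 19.2% in SARAWT bleomycin 1 to 3, a difference of -17.6 points. The SARATg libraries stood at 61.0% with PBS and 7.76% with bleomycin. T cells moved with this ratio: they made up 1.37%, 0.896% and 6.79% of kept cells in SARAWT PBS 1 to 3, 4.92%, 9.27% and 11.1% in SARAWT bleomycin 1 to 3, and 2.13% and 11.7% in the SARATg pair. More T cells and fewer ILC2s cannot be told apart in a ratio. The share of the rule's cells that were keratinocyte-like ran from 0.565% in SARAWT bleomycin 3 to 51.3% in SARATg PBS 1.

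**Figure D3:**
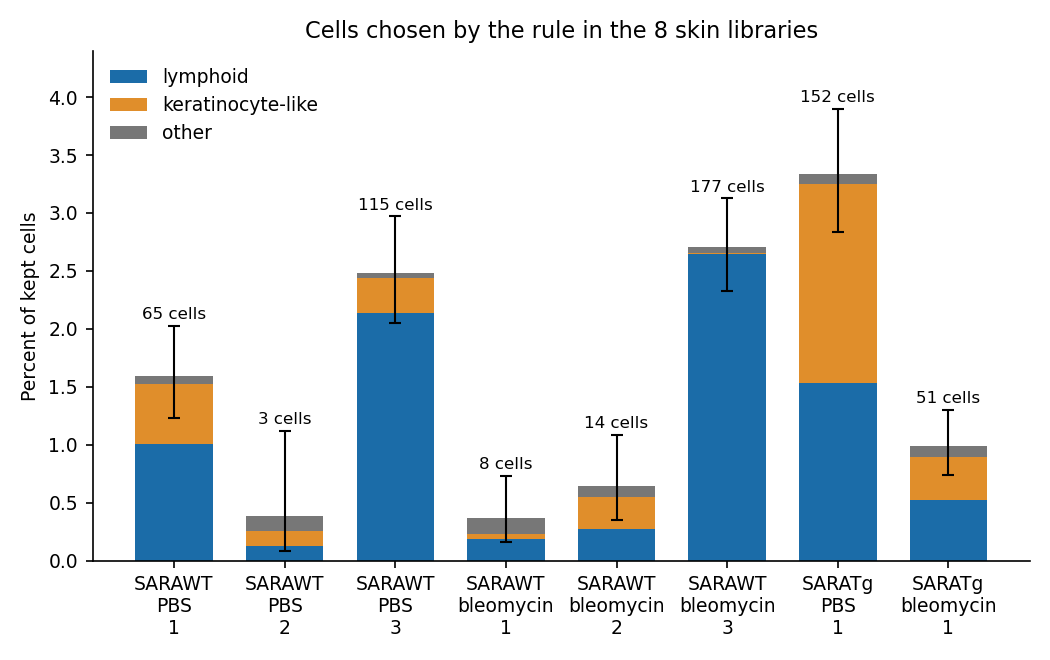
Percent of kept cells (y axis) that met the rule in each of the 8 skin libraries, stacked by kind, with the exact 95% interval of the total and the number of cells above each bar. The highest total is 3.34% in SARATg PBS 1 and the lowest 0.371% in SARAWT bleomycin 1, and the PBS and bleomycin bars overlap.

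The lymphoid cells were of several states when sorted by cytokine and by neuropeptide or Hlf UMIs, with 2 UMIs as the limit for each pair of genes. Of the 421 cells, 175 (41.6%) had Calca or Hlf without Il5 or Il13, 191 (45.4%) had both pairs, 33 (7.84%) had Il5 or Il13 only and 22 (5.23%) had neither. Median depth was alike, at 6326, 6849, 6815 and 6264 UMIs per cell. A median does not show the deepest cells, and pooled values of a state can lean on them. Cells with cytokine only made up 7 of 41 (17.1%) in the library labelled SARAWT PBS 1, 5 of 99 (5.05%) in the library labelled SARAWT PBS 3, 3 of 173 (1.73%) in SARAWT bleomycin 3, 14 of 70 (20.0%) in SARATg PBS 1 and 1 of 27 (3.70%) in SARATg bleomycin 1. SARAWT bleomycin 1 and 2 had 2 of 4 and 1 of 6. Among the 5 larger libraries they were most frequent in the library labelled SARAWT PBS 1 and in SARATg PBS 1, the ones in which Il13 was highest. The state is itself defined by Il5 and Il13 UMIs, so this match is no separate result.

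The 33 cells with cytokine only are set beside the cells with both pairs and those with Calca or Hlf only, as a description of pooled cells with no test, and 7 of the 33 came from the library labelled SARAWT PBS 1 and 14 from SARATg PBS 1. Csf2, which encodes GM-CSF, stood at 4157 CPM in them, at 458 CPM in cells with both pairs and at 26.8 CPM in cells with Calca or Hlf only, and was found in 23, 37 and 4 cells. Areg (amphiregulin, a growth factor of tissue repair) stood at 1931, 741 and 265 CPM in the same order. Arg1 (arginase) stood at 486, 57.4 and 7.10 CPM, and Klrg1, an inhibitory lectin receptor of mature ILC2s, at 167, 31.8 and 2.37 CPM. Il1rl1 stood at 1395, 607 and 82.8 CPM, although the rule counted it, and Il2ra at 661, 342 and 114 CPM. The costimulatory gene Icos went the other way, at 249, 1716 and 1888 CPM, and was found in 11 of the 33 cells against 172 of 191 and 167 of 175. Kit stood at 73.8, 227 and 211 CPM, and Il18r1 (the IL-18 receptor) at 206, 337 and 372 CPM. Over libraries with at least 5 cells of a state, Arg1 ran from 186 to 903 CPM in cytokine-only cells and from 0 to 700 CPM with both pairs. Il2ra ran from 164 to 1047 and from 220 to 686 CPM, and Il18r1 from 149 to 213 and from 113 to 396 CPM. The ranges of these genes thus overlapped. The pooled Kit of 73.8 CPM in cytokine-only cells lay above its range there, 0 to 9.19 CPM. Gata3 (1974, 1722 and 1272 CPM) and Rora (2071, 1817 and 1622 CPM) were high in all 3. The 22 cells with neither pair had Icos at 114 CPM, below the pooled cytokine-only cells, with Csf2 at 644 CPM and Areg at 300 CPM. Over libraries with at least 5 such cells Csf2 ran from 511 to 6374 CPM and Areg from 468 to 557 CPM. Icos ran from 0 to 99.3 CPM there and from 0 to 223 CPM in cytokine-only cells, so those ranges overlapped. In the 22 cells the pooled Areg of 300 CPM lay below its range, and the pooled Icos of 114 CPM above its range. Libraries with fewer than 5 such cells thus weighed on these pooled values. The immediate early gene Nr4a1 stood at 1667, 325 and 180 CPM in the first 3 states, and over libraries with at least 5 cells of a state it ran from 1057 to 3792, from 127 to 1513 and from 45.9 to 740 CPM, so that the first pair of ranges overlapped. Fos, another such gene, stood at 967, 255 and 412 CPM and ran from 882 to 1592, from 163 to 825 and from 118 to 971 CPM. Its range in cytokine-only cells lay above that in cells with both pairs and overlapped that in cells with Calca or Hlf only. The heat shock gene Hspa1a was found in 9 of the 33 cells, at 37.2 to 2101 CPM over libraries, against 35.9 to 692 CPM in cells with Calca or Hlf only. The part of such genes in the differences between states was not tested.

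**Figure D4:**
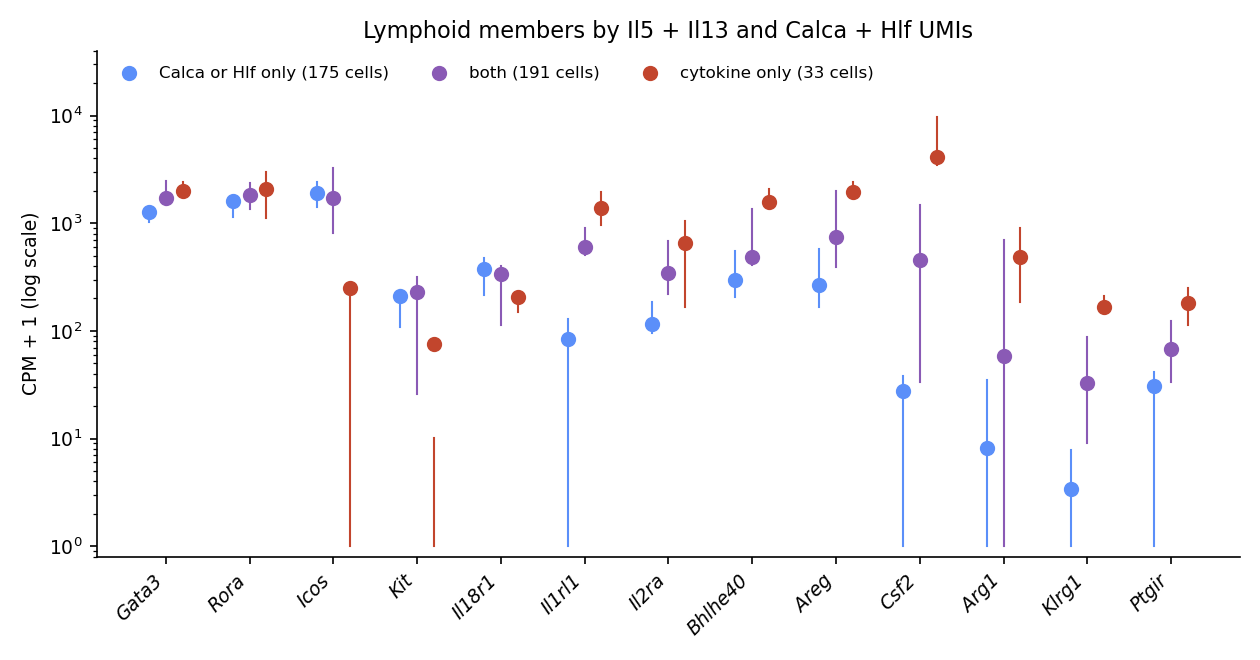
Pooled CPM + 1 (y axis, log scale) of 13 genes in lymphoid cells with Calca or Hlf only (175 cells), with both pairs (191) and with Il5 or Il13 only (33), with vertical lines for the range over libraries that held at least 5 cells of that state. The pooled values of Csf2, Arg1 and Klrg1 are highest, and that of Icos lowest, in the cytokine-only cells. The Arg1 ranges of cytokine-only cells and of cells with both pairs overlap.

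The share of a library's cytokine UMIs that sat in lymphoid cells is given as a description for Il5 and Il13, since the rule counted both genes and so helped to set it. Lymphoid cells held 157 of 220 Il5 UMIs (71.4%) in the library labelled SARAWT PBS 1, 0 of 1 in SARAWT PBS 2 and 457 of 1323 (34.5%) in the library labelled SARAWT PBS 3. They held 48 of 116 (41.4%), 109 of 173 (63.0%) and 1343 of 1545 (86.9%) in SARAWT bleomycin 1 to 3. In SARATg PBS 1 they held 823 of 1947 (42.3%), where αβ T cells held 1008, and in SARATg bleomycin 1 135 of 248 (54.4%). αβ T cells also held 66 of the 116 Il5 UMIs (56.9%) in SARAWT bleomycin 1 and 427 of the 1323 (32.3%) in the library labelled SARAWT PBS 3, where cells with mast cell genes held 239.

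For Il13 the lymphoid share ran from 8.49% (9 of 106 UMIs, SARAWT bleomycin 2) to 76.3% (251 of 329, SARAWT bleomycin 3), leaving out SARAWT PBS 2 with 2 UMIs in all. Il4, the partner cytokine, was scarce in these cells: they held 1 of 395 UMIs in the library labelled SARAWT PBS 1, where cells with mast cell genes held 259, and at most 8.97% in any library. No lymphoid cell held a UMI of Il9 or Il31. Of Arg1 UMIs, lymphoid cells held 73.5% in the library labelled SARAWT PBS 1 and 43.6% in SARATg PBS 1, and at most 10.6% in the other 6.

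The share of a library's Areg UMIs in all cells of the rule was 9.21% ± 10.0 with PBS and 4.80% ± 3.45 with bleomycin (SD, n = 3 SARAWT libraries each), so bleomycin minus PBS was -4.41 points (p = 0.6 by an exact two-sided permutation of the libraries). For Csf2 the shares were 33.4% ± 29.0 and 26.0% ± 10.6, a difference of -7.44 points (exact permutation p = 0.8). Without the libraries labelled SARAWT PBS 1 and PBS 3, SARAWT PBS 2 alone held 0% of both genes in these cells, and the differences turned to 4.80 and 26.0 points, with no test. The Csf2 difference over all 6 libraries was smaller than the SD of either group, and the Areg difference was smaller than the SD with PBS and larger than that with bleomycin.

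**Figure D5:**
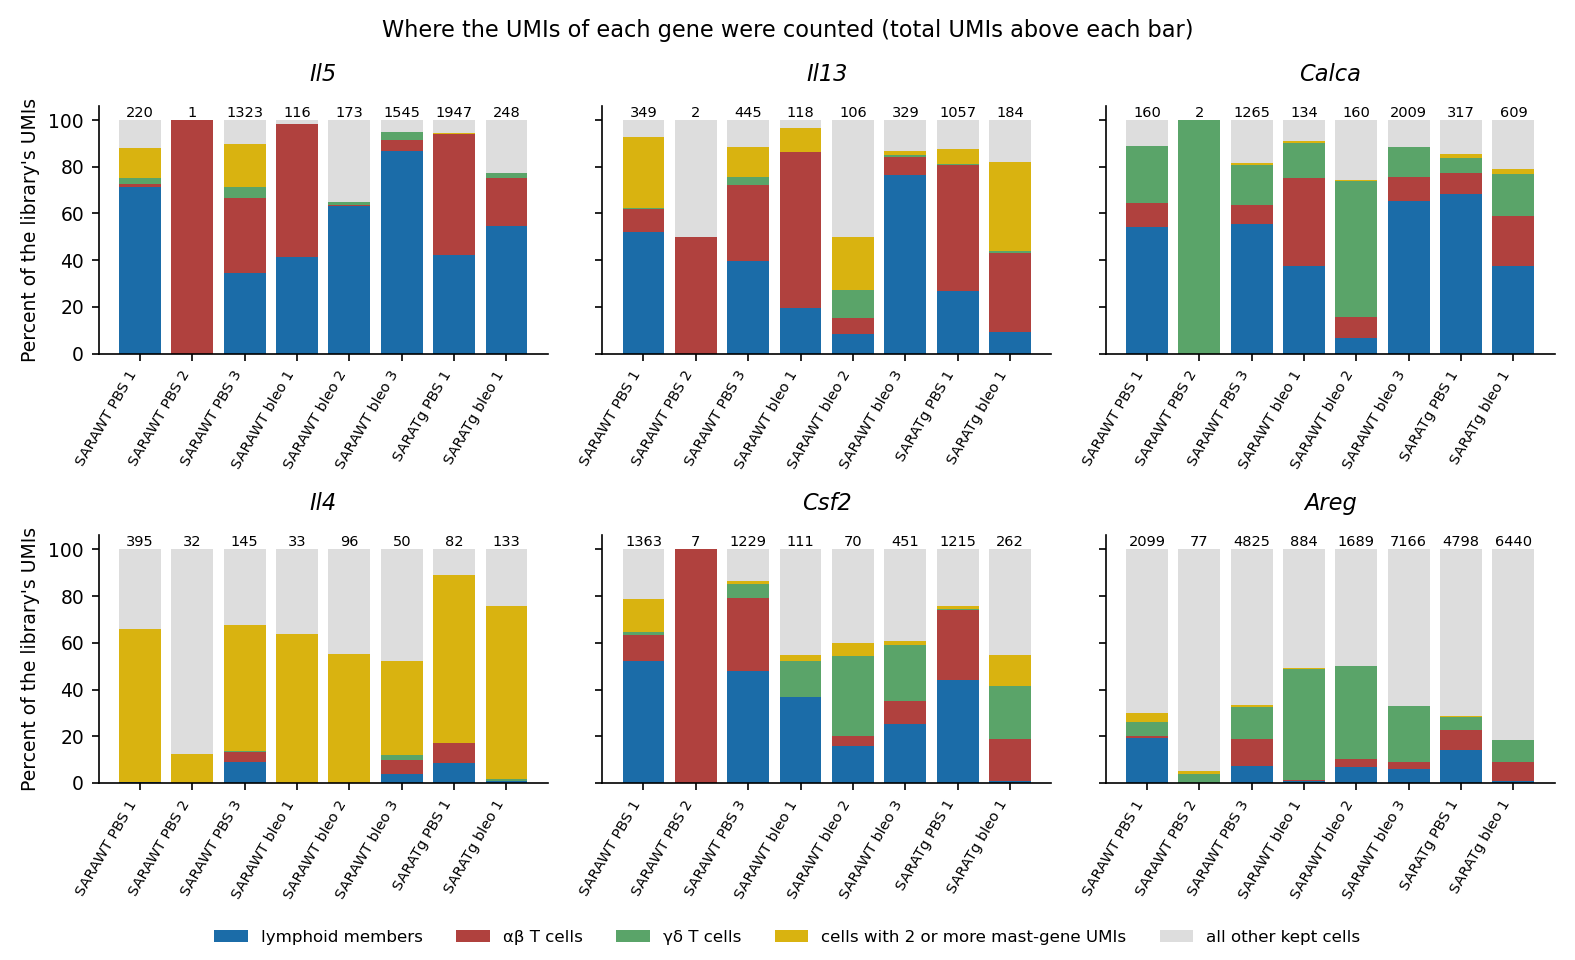
Percent of each library's UMIs of Il5, Il13, Calca, Il4, Csf2 and Areg (y axis) held by lymphoid cells, αβ T cells, γδ T cells, cells with at least 2 mast cell gene UMIs and all other cells, with the library's total UMIs of that gene above each bar. The lymphoid part of Il5 is largest in SARAWT bleomycin 3 (86.9%), and that of Il4 is at most 8.97%.

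Gene levels in these cells were compared between SARAWT bleomycin and SARAWT PBS on UMIs summed per library, for libraries with at least 10 cells of the rule (the libraries labelled SARAWT PBS 1 and PBS 3, and SARAWT bleomycin 2 and 3). Of 8034 genes tested, 0 passed an adjusted p of 0.05 in edgeR's quasi-likelihood test (percent called 0), and 86 had an unadjusted p under 0.05. DESeq2 called 6 genes, 3 in each direction. Both PBS libraries are those whose Zfyve9 or human ZFYVE9 reads went against the label, and without them no fit was possible. On simulated counts at this size the test recovered 0 of 200 genes changed by 2 on the log2 scale, so the count of 0 says nothing of changes of that size or smaller. With cells carrying UMIs of another lineage left out, the log2 difference was 3.72 for Odc1 and 7.93 for Il17a, higher with bleomycin. Keratinocyte genes were lower, among them Krt1 (-11.8), Krtdap (-11.6), Ly6d (-10.6) and Krt10 (-9.08). That fit held the libraries labelled SARAWT PBS 1 and PBS 3 and SARAWT bleomycin 3, in which 0.565% of the cells of the rule were keratinocyte-like against 32.3% and 12.2% in the PBS libraries. With 1 bleomycin library, any error would come from the spread between the PBS libraries alone, so only effect sizes are given for it. In lymphoid cells alone, with the same single bleomycin library, the log2 difference of Lyz1 was 5.34. In those cells of SARAWT PBS 1, PBS 3 and bleomycin 3, the macrophage and monocyte list summed to 439, 972 and 1666 CPM. The neutrophil list summed to 0, 21.4 and 341 CPM, while the dendritic list went the other way, at 4316, 4322 and 3370 CPM. The part of such RNA in the Lyz1 difference was not tested. With libraries of at least 4 lymphoid cells, which keeps all 3 bleomycin libraries, edgeR called 0 genes (71 at an unadjusted p under 0.05).

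Odc1 encodes the first enzyme of polyamine synthesis. In lymphoid cells it stood at 199, 0 and 156 CPM in SARAWT PBS 1 to 3, at 681, 264 and 1629 CPM in SARAWT bleomycin 1 to 3, and at 877 and 192 CPM in the SARATg pair. The SARAWT bleomycin values lay above the PBS values, but SARAWT PBS 2 and SARAWT bleomycin 1 and 2 rest on 1, 4 and 6 cells and the other PBS libraries are those in doubt, and the SARATg pair had the opposite order. In SARAWT bleomycin 3 Odc1 also stood at 2546 CPM in γδ T cells, 1262 CPM in αβ T cells and 582 CPM in kept cells outside the rule. Il17a, by contrast, stood at 88.3, 0 and 3.56 CPM with PBS and at 0, 0 and 77.8 CPM with bleomycin. Of the 13 gene lists, none held a called gene in this contrast with all cells of the rule. The median log2 difference of the 20 immediate early genes was -0.93, that of the 16 tested inhibitory and feedback genes -0.65 and that of the 15 tested alarmin and cytokine receptors 0.21, beside 0.02 over all genes tested. It was 0.88 for the 6 tested interferon-stimulated genes, -0.43 for the 10 tested proliferation genes and 0.39 for the 13 tested glycolysis and hypoxia genes.

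The SARATg libraries are single, and their lymphoid cells (70 with PBS and 27 with bleomycin) are described with exact Poisson 95% intervals that cover counting error only. Csf2 stood at 1064 CPM (976 to 1159) with PBS and at 6.09 CPM (0.737 to 22.0) with bleomycin. Areg stood at 1352 CPM (1252 to 1458) and 134 CPM (97.3 to 180), and Il13 at 567 CPM (503 to 637) and 51.7 CPM (30.1 to 82.8). Arg1 stood at 150 CPM (118 to 188) with PBS and had no UMI with bleomycin, where 3 counts would be 9.13 CPM. Csf1 had the opposite order, with 1 UMI with PBS and 36 with bleomycin, but few cells may carry those UMIs. Over all libraries Csf1 was highest in the 22 cells with neither pair of state genes (119 CPM, found in 6 cells), of which SARATg bleomycin 1 held 3. Calca was the exception among the rule's genes, at 431 CPM (376 to 493) and 694 CPM (607 to 790). Kit, at 144 and 113 CPM, and Icos, at 1492 and 1096 CPM, differed less. The library with PBS also held 14 of the 33 cytokine-only cells. Genes of other lineages moved with these levels: in the lymphoid cells of SARATg PBS 1 and SARATg bleomycin 1 the dendritic list summed to 4267 and 10238 CPM, the macrophage and monocyte list to 931 and 3418 CPM and the fibroblast list to 316 and 5889 CPM, while the ILC2 list summed to 13820 and 6315 CPM. Their part in the differences was not tested.

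Csf2, Areg and Arg1 varied across the SARAWT libraries as well. Csf2 stood at 2250, 0 and 700 CPM in SARAWT PBS 1 to 3 and at 620, 138 and 94.4 CPM in SARAWT bleomycin 1 to 3. Areg stood at 1262, 0 and 423 CPM with PBS and at 90.8, 1470 and 359 CPM with bleomycin. Arg1 stood at 454, 0 and 27.3 CPM with PBS and at 15.1, 12.6 and 5.80 CPM with bleomycin. The Areg values overlapped between PBS and bleomycin. For Csf2 and Arg1 the overlap came from the single cell of SARAWT PBS 2 at 0, and the libraries labelled SARAWT PBS 1 and PBS 3 lay above the bleomycin libraries, as SARATg PBS 1 did above SARATg bleomycin 1.

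To see what sets the cells apart beyond the rule, they were compared with γδ T cells (1347 cells with Trdc UMIs) and αβ T cells (768 cells with Trac UMIs) of the same libraries. UMIs of the γ-chain or β-chain constant genes counted towards these rules but were not required. The fit held library as a block and left out the genes of either cell type's rule. Over 6 libraries and 10296 genes, edgeR called 2332 genes against γδ T cells (22.6%), 1356 higher (13.2%) and 976 lower (9.48%) in the cells of the rule. Against αβ T cells it called 867 of 9544 (9.08%), 582 higher (6.1%) and 285 lower (2.99%). That count fell to 259 without SARATg PBS 1, 299 without SARATg bleomycin 1 and 130 with lymphoid cells alone, and the count against γδ T cells to 977 without SARATg bleomycin 1 and 502 with lymphoid cells alone. Keratinocyte genes led the higher side of both: Calm4 was higher by 8.01 ± 0.69 and by 10.61 on the log2 scale, and Krt10 by 8.31 against αβ T cells, which turned to -0.354 in lymphoid cells alone. The keratin limit on lymphoid cells counts Krt10 and so helped to set that change. The keratinocyte-like cells are 24.1% of the cells of the rule and were the deeper ones, so both comparisons were also made, as an alternative added after seeing the data, with every cell of either type left out that held at least 2 UMIs of Lyz2, Cd74, Col1a1, Col3a1, Krt14, Krt5, C1qa and C1qb. Krt10 and Krt1 were not among the counted genes, so keratinocyte-like cells could stay in. The words without other-lineage cells mean this filter alone, and Lgals7, a keratinocyte galectin, was still higher by 6.63 against γδ T cells. The filter left 5 libraries against γδ T cells, with 511 genes called of 4591 tested (11.1%), 256 higher (5.58%) and 255 lower (5.55%), and 4 libraries against αβ T cells, with 308 called of 5408 (5.7%), 151 higher (2.79%) and 157 lower (2.9%). It kept 20 of 65 cells of the rule in SARAWT PBS 1 (not in the αβ fit) and 52 of 115 in SARAWT PBS 3. In SARAWT bleomycin 3 it kept 64 of 177, in SARATg PBS 1 27 of 152 and in SARATg bleomycin 1 11 of 51. Values without other-lineage cells thus describe these cells and not all 421 lymphoid cells. Of these 256 higher and 255 lower genes, 133 and 214 were also called the same way with every cell of the rule. Against αβ T cells 57 of 151 and 90 of 157 were. Without the libraries labelled SARAWT PBS 1 and PBS 3, the counts were 519 against γδ T cells and 334 against αβ T cells with every cell of the rule, and 403 and 130 without other-lineage cells, where 3 libraries remained. Of the 20 genes with the largest differences from γδ T cells in the fit without other-lineage cells, chosen as 10 in each direction, 19 were then called the same way and Tnfsf4 was not tested. Of the 20 chosen in the same way against αβ T cells, 15 were tested, of which 14 were called the same way and all 15 kept their sign. Gpr174 and Sh2d1a were among the 6 not called, most of which were not tested. Without other-lineage cells, leaving out the library labelled SARAWT PBS 3 or SARAWT bleomycin 3 gave 164 and 212 calls against γδ T cells and 130 and 115 against αβ T cells, and leaving out SARATg bleomycin 1 gave 184 against αβ T cells.

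In the comparison without other-lineage cells, the genes that were higher than in γδ T cells included several receptor genes. Ptgir, the prostacyclin receptor, was higher by 5.81 ± 0.57 on the log2 scale (edgeR adjusted p = 2.1e-05) and Kit, the stem cell factor receptor, by 4.69 ± 0.59 (adjusted p = 0.00017). In lymphoid cells Ptgir stood at 88.3, 132 and 52.3 CPM in SARAWT PBS 1 to 3, at 45.4, 0 and 43.9 CPM in SARAWT bleomycin 1 to 3, and at 112 and 9.13 CPM in the SARATg pair, against 0 to 2.69 CPM in the γδ T cells of the 5 larger libraries. Kit stood at 56.8, 0 and 187 CPM with PBS, at 106, 113 and 273 CPM with bleomycin, and at 144 and 113 CPM in the SARATg pair. Cd200r1, an inhibitory receptor, was higher by 5.60 ± 0.81, Igsf5 by 4.81 ± 0.45, Palld by 4.92 ± 0.47, Tnfsf4 (OX40 ligand) by 4.31 ± 0.86, Rnf128 by 4.19 ± 0.45 and Il10ra by 3.77 ± 0.46. Hes1, a Notch target, was higher by 6.75 ± 0.52 in that comparison, but its lymphoid and γδ T ranges overlapped when no cells were left out (9.47 to 161 and 9.51 to 23.8 CPM). Lgals7, higher by 6.63 in the same comparison, is a keratinocyte galectin and turned to -3.05 in lymphoid cells alone.

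The genes that were lower than in γδ T cells included Cd247 and type 17 genes. The rules asked for CD3 and Trdc UMIs in the γδ T cells and for none of Cd3d, Cd3e or Trdc in the cells compared with them, which helped to set the difference in T-cell genes. Cd247, the CD3 ζ chain, was lower by 5.49 (log2 difference -5.49 ± 0.47, edgeR adjusted p = 7.6e-06) and lay at 0.828 to 20.0 CPM against 160 to 317 CPM in γδ T cells. Blk, a kinase of γδ T cells and B cells, had no UMI in any lymphoid cell and lay at 110 to 147 CPM in γδ T cells. Il17a was lower (-5.71 ± 0.64), at 0 to 88.3 CPM against 564 to 1345 CPM. The chemokine genes Ccl4 (-5.98 ± 0.51) and Ccl5 (-5.76 ± 0.47), the IL-1 receptor gene Il1r1 (-5.49 ± 0.52), Pde5a (-6.45 ± 0.55) and Bcl2a1a (-6.10 ± 0.46) were also lower.

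Against αβ T cells, Bmp2, a bone morphogenetic protein, was higher by 6.41 ± 0.66 without other-lineage cells. Hs3st1, a heparan sulfate sulfotransferase, was also called higher, and lay at 0 to 80.8 CPM in the lymphoid cells of the 5 larger libraries against 0 to 0.504 CPM in αβ T cells (68 and 0 UMIs in the cells compared). Bmp2 was also higher in lymphoid cells alone, by 5.39 against αβ T cells and by 4.21 against γδ T cells. It stood at 97.8, 662 and 72.5 CPM in SARAWT PBS 1 to 3, at 106, 113 and 55.5 CPM in SARAWT bleomycin 1 to 3, and at 81.9 and 12.2 CPM in the SARATg pair, against 0 to 5.29 CPM in the αβ T cells of the 5 larger libraries. Kit was higher by 3.80 ± 0.37 (edgeR adjusted p = 3.9e-05), and had a log2 difference of 1.99 with every cell of the rule (adjusted p = 0.072). The lower genes included Ccl5 (-7.17 ± 0.54) and the T-cell genes Cd4, Cd5, Cd6, Themis, Gpr174, Sh2d1a and Slamf6, which mark the cells that the limit on Cd3d and Cd3e left out. Cd4 and Cd5 had 0 UMIs in the cells of the rule in that comparison, against 358 and 539 in αβ T cells.

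Of 18 transcription factors of the ILC2 programme, 16 averaged at least 50 CPM in lymphoid cells. Without other-lineage cells, 3 of 17 tested were higher and 4 lower than in γδ T cells (median log2 difference -0.22, beside 0.01 over all genes tested), and 0 of 17 were called against αβ T cells (median -0.16, beside -0.03). With every cell of the rule the counts were 1 higher and 10 lower of 18, and 0 higher and 1 lower of 18. In lymphoid cells alone they were 1 higher and 2 lower of 17, and 0 and 0 of 17. The list holds Rora, by which lymphoid cells were set apart, so its place there is no test. Over all genes tested, 11.1% were called against γδ T cells without other-lineage cells and 22.6% with every cell of the rule, and against αβ T cells 5.7% and 9.08%. In lymphoid cells alone 502 of 7453 genes were called against γδ T cells and 130 of 7019 against αβ T cells. Pparg, a lipid-sensing nuclear receptor, was higher than in γδ T cells (edgeR adjusted p = 0.0056), at 30.4 to 85.9 CPM in the lymphoid cells of the 5 larger libraries against 0 to 5.79 CPM. Bhlhe40 was higher by 1.03 ± 0.29 and Rora by 0.44 ± 0.13. Zbtb16 (PLZF, -2.59 ± 0.52), Irf4 (-2.12 ± 0.43), Batf (-1.60 ± 0.24) and Maf (-0.93 ± 0.18) were lower. Rora itself stood at 1407, 2517 and 1739 CPM in SARAWT PBS 1 to 3, at 1255, 1432 and 1749 CPM in SARAWT bleomycin 1 to 3, and at 1811 and 873 CPM in the SARATg pair, overlapping both T-cell types. Id2, which holds back T and B cell fates, stood at 1805 to 2899 CPM in the 5 larger libraries, against 1496 to 1938 CPM in γδ T cells.

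The list of receptors for neuropeptides, lipids and TNF-family ligands also held Icos, Icosl, Klrg1, Kit, Thy1 and Cd44, which are not of these classes. Its counts are therefore not those of such receptors alone. Of its 17 genes tested without other-lineage cells, 7 were higher and 3 lower than in γδ T cells (median 1.01). Against αβ T cells 6 were higher and 2 lower (median 0.76). Over all genes tested, 5.58% were higher and 5.55% lower than in γδ T cells, and 2.79% and 2.9% than in αβ T cells. With every cell of the rule, 6 were higher and 4 lower of 18 against γδ T cells, whereas against αβ T cells 0 were higher and 3 lower of 19. In lymphoid cells alone the counts were 8 and 1 of 18, and 3 and 1 of 19. The list holds Icos, by which lymphoid cells were set apart, so its place in those counts is no test. Tnfrsf18 (GITR) was higher than in γδ T cells by 3.21 ± 0.43 and than in αβ T cells by 0.83 ± 0.22. Cysltr1, the cysteinyl leukotriene receptor, was higher by 1.71 ± 0.36 and by 1.99 ± 0.28. Calcrl, the receptor chain for CGRP, was higher than in γδ T cells by 3.38 ± 0.72. Ramp3, another gene of the list, was higher than in αβ T cells by 0.88 ± 0.20, which says nothing of a CGRP receptor. Whether the cells carry a CGRP receptor pair was not tested. Ptger2, a prostaglandin E2 receptor, was lower than in γδ T cells (-2.76 ± 0.60), and Tnfrsf4 (OX40) lower than in αβ T cells (-4.08 ± 0.29). Icos, the marker, was higher than in γδ T cells by 0.82 ± 0.16. Receptors known from ILC2s of other organs were near 0 in lymphoid cells: Nmur1, for neuromedin U, lay at 0 to 3.16 CPM and Ptgdr2, for prostaglandin D2, at 0 to 1.66 CPM.

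Among alarmin and cytokine receptors, 12 of 16 averaged at least 50 CPM. Without other-lineage cells, 2 were higher and 2 lower of 12 against γδ T cells (2 and 4 of 16 with every cell of the rule), and 3 were higher and 0 lower of 12 against αβ T cells (0 and 0 of 15). In lymphoid cells alone the counts were 4 and 2 of 16, and 0 and 0 of 15. The list holds Il7r, by which lymphoid cells were set apart, so its place there is no test. Il18rap, a chain of the IL-18 receptor, was higher by 2.19 ± 0.38 and by 1.16 ± 0.24, and Il10ra by 3.77 ± 0.46 and by 1.37 ± 0.30. Il7r was higher than in αβ T cells by 1.01 ± 0.24. Il2ra, the high-affinity IL-2 receptor chain, was lower than in γδ T cells (-1.54 ± 0.30). Il17rb, the IL-25 receptor that marks ILC2s of the gut, lay at 3.04 to 19.9 CPM in lymphoid cells.

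Of effector genes other than the rule's cytokines, against γδ T cells 2 were higher and 5 lower of 14 tested without other-lineage cells (4 and 6 of 23 with every cell of the rule), and against αβ T cells 0 and 5 of 13 (1 and 8 of 24). In lymphoid cells alone the counts were 1 and 5 of 20, and 0 and 3 of 21. Arg1 was higher than in γδ T cells by 5.09 ± 0.60 and Csf2 by 3.83 ± 1.01. Neither was higher in the lymphoid cells of every library. In SARATg bleomycin 1, Csf2 had 2 of 328379 UMIs in lymphoid cells and 60 of 2226861 in γδ T cells. Arg1 had 0 and 2 UMIs there. Gzmb (-4.02 ± 0.46) and Gzma (-3.12 ± 0.71), the granzymes of cytotoxic cells, Tnf (-2.69 ± 0.51) and Ltb (-2.48 ± 0.29) were lower. Penk, the enkephalin precursor, was lower than in αβ T cells (-3.17 ± 0.58), as were Tnfsf8 (-2.50 ± 0.38) and Tnfsf11 (RANKL, -1.91 ± 0.50). Areg had log2 differences of 0.49 ± 0.40 and 0.50 ± 0.44, neither past the threshold.

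Of the residency and migration genes without other-lineage cells, 2 were higher and 3 lower of 13 against γδ T cells, and 1 higher and 3 lower of 15 against αβ T cells (0 and 7, and 0 and 3, of 17 with every cell of the rule). In lymphoid cells alone the counts were 1 and 1 of 16 in both. Itgae, the αE integrin of tissue-resident lymphocytes, was higher than in αβ T cells by 2.14 ± 0.40, while S1pr1 (-4.04 ± 0.62), which guides exit from tissue, Ccr4 (-2.91 ± 0.55) and Klf2 (-1.44 ± 0.33) were lower. Ccr8 was higher than in γδ T cells by 3.61 ± 0.91 and Rgs2 by 1.53 ± 0.29, and Gpr183 (-1.93 ± 0.19) and Cd69 (-1.30 ± 0.31) were lower. Inhibitory and feedback genes gave 5 higher and 2 lower of 16 against γδ T cells, with Dusp10 (2.48 ± 0.28) and Ctla4 (2.22 ± 0.59) higher and Pdcd1 (PD-1, -1.55 ± 0.34) lower. They gave 0 and 1 of 16 against αβ T cells, where Ctla4 was lower (-2.34 ± 0.45). With every cell of the rule the counts were 2 and 6 of 16, and 2 and 1 of 18. In lymphoid cells alone they were 3 and 3 of 16, and 0 and 0 of 17.

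Glycolysis and hypoxia genes gave 3 higher and 2 lower of 12 against γδ T cells, with Vegfa (2.05 ± 0.35) and Ldha (1.56 ± 0.23) higher and Hk2 (-2.00 ± 0.23) lower, and 0 of 12 against αβ T cells (2 higher and 4 lower, and 0 and 1, of 14 with every cell of the rule). In lymphoid cells alone these genes gave 2 and 2, and 0 and 0, of 13. Lipid and amino acid uptake genes gave 3 higher and 1 lower of 6 against γδ T cells and 1 higher and 0 lower of 5 against αβ T cells (5 and 2 of 12, and 5 and 0 of 11, with every cell of the rule). Lymphoid cells alone gave 2 and 0 of 9, and 1 and 0 of 10. Without other-lineage cells Dgat2, of triglyceride synthesis, was higher by 3.16 ± 0.45 against γδ T cells and by 2.24 ± 0.52 against αβ T cells. Proliferation genes gave 0 higher and 6 lower of 12 against αβ T cells (median -1.52), with Mki67 at -2.73 ± 0.45 and Stmn1 at -2.46 ± 0.42, and 0 higher and 1 lower of 7 against γδ T cells. With every cell of the rule those counts were 0 and 4, and 0 and 2, of 15. Lymphoid cells alone gave 0 and 5 of 15, and 0 and 0 of 14. In lymphoid cells Mki67 lay at 12.6 to 75.9 CPM in the 5 larger libraries, against 56.1 to 465 CPM in αβ T cells. Immediate early genes gave 1 higher and 0 lower of 19 against γδ T cells and 1 and 2 of 19 against αβ T cells, whereas with every cell of the rule they gave 8 and 2, and 8 and 0, of 20. Lymphoid cells alone gave 1 and 0 of 19, and 0 and 0 of 20. Heat shock genes gave 0 higher and 1 lower of 10 and 0 of 10, and p53 targets 0 of 8 and 0 of 7. With every cell of the rule, heat shock genes gave 0 and 4, and 0 and 1, of 10, and p53 targets 1 and 2 of 14 and 1 and 1 of 15. In lymphoid cells alone heat shock genes gave 0 and 3, and 0 and 0, of 10. There p53 targets gave 1 and 0 of 12, and 0 and 0 of 11. Interferon-stimulated genes gave 2 higher and 0 lower of 5 against γδ T cells and 0 and 2 of 5 against αβ T cells, with Ifi27l2a at 1.42 ± 0.42 and -3.56 ± 0.34 (2 and 1 of 10, and 1 and 2 of 9, with every cell of the rule). Lymphoid cells alone gave 2 and 0 of 6, and 0 and 0 of 7. All counts of called genes here are at an adjusted p of 0.05 in edgeR. For every list the shares over all genes tested without other-lineage cells were 5.58% higher and 5.55% lower against γδ T cells and 2.79% and 2.9% against αβ T cells. In lymphoid cells alone 235 were higher and 267 lower of 7453 genes against γδ T cells, and 65 and 65 of 7019 against αβ T cells.

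Zfyve9, the mouse counterpart of the study's human ZFYVE9 transgene, was read in these cells too. In lymphoid cells it stood at 15.8, 0 and 503 CPM in SARAWT PBS 1 to 3, at 0, 0 and 1.66 CPM in SARAWT bleomycin 1 to 3, and at 503 and 161 CPM in SARATg PBS 1 and SARATg bleomycin 1. A Zfyve9 UMI was found in 82 of 99 lymphoid cells (82.8%) of the library labelled SARAWT PBS 3, in 58 of 70 (82.9%) of SARATg PBS 1 and in 19 of 27 (70.4%) of SARATg bleomycin 1. The library labelled SARAWT PBS 3 thus stood with the SARATg libraries. Human ZFYVE9 stood at 931 CPM (295 UMIs) in the lymphoid cells of the library labelled SARAWT PBS 1, at 265 CPM (2 UMIs) in SARAWT PBS 2, and at 30.3 CPM (2 UMIs) and 264 CPM (21 UMIs) in SARAWT bleomycin 1 and 2.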

How the data were processed

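Single-cell 3′ RNA-seq libraries of GFP+ cells sorted from Liberase-digested mouse skin (8 libraries) were used, with 9 kidney libraries as a side count. The deposited files hold raw UMI counts per gene and barcode, made by the authors with Cell Ranger on mm10 and not normalized. The matrix headers give Cell Ranger 4.0.0 for 4 skin libraries (32286 entries, human ZFYVE9 included), 3.1.0 for 4 (31053 entries) and 3.0.2 for kidney, whereas the submitters' processing notes name Cell Ranger 3.0.2 and Seurat 2.3.4. The 30406 shared gene IDs were joined by ID.

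The members, the 13 gene lists and the alternatives were chosen with earlier results of these data known. Lymphoid cells (fewer than 5 keratin-list UMIs, at least 3 UMIs of Icos, Rora and Il7r) and keratinocyte-like cells (at least 5 keratin-list UMIs, whatever the others) were set apart after their values were seen. γδ T cells had at least 1 UMI of Cd3d, Cd3e and Cd3g, at least 2 of Trdc, Tcrg-C1, Tcrg-C2 and Tcrg-C4 with Trdc at least 1, and no Trac. αβ T cells had at least 2 of Trac, Trbc1 and Trbc2 with Trac at least 1, and no Trdc or γ-chain constant UMI. UMIs were summed per library and cell type, needing at least 10 cells of each, and tested with edgeR 4.0.16 (filterByExpr, TMM, glmQLFTest, Benjamini-Hochberg over all genes tested). Genes of the rules were left out of counts and names. Icos, Rora and Il7r, which set the lymphoid cells apart, were not left out of the counts for lymphoid cells alone. Named genes were list members averaging at least 50 CPM over libraries, or at 0 where they define another cell type, and up to 10 per direction with the largest difference that passed the threshold, differed the same way in every library, and averaged at least 30 CPM in the higher group. Genes named outside this rule (Hes1 levels, Nmur1, Ptgdr2, Il17rb, Klrg1 and other list members under 50 CPM) were chosen after their values were seen.

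CPM is a library's or state's summed UMIs of a gene, scaled to a total of 1000000 UMIs over those cells. A log2 difference is edgeR's, and the SE after ± was derived from it. It is the absolute log2 difference divided by the square root of the quasi-likelihood F statistic. Shares carry exact Clopper-Pearson 95% intervals, and CPM of single libraries exact Poisson 95% intervals. These and the limit that 3 counts give for a value of 0 cover counting error only. Tests over 3 against 3 libraries were two-sided exact permutation tests (scipy 1.17.1). Doublets were scored per library with Scrublet (scanpy 1.11.5), the highest scores being marked at an expected rate of 0.8% per 1000 barcodes. They marked 1167 kept cells (3.88%) and 42 of the 585 (7.18%), and were kept in the main results. On simulated counts with 200 genes changed by 2 on the log2 scale, the fits recovered 91.5% against γδ T cells (9625 genes) and 86.5% against αβ T cells (9054 genes). DESeq2 1.42.0, no filter on low counts, other cell limits, stricter cell filters, removal of marked doublets and shared barcodes, other denominators and each library left out were the alternatives.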

Additional observations from a re-analysis of the deposited data

Results flagged for a closer look

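Kidney cells were outside the comparisons, and some there met the same rule and the limits set for lymphoid cells of skin. Of 61744 kept kidney cells in 9 libraries, 98 met the rule and 63 (0.102%) were lymphoid by the limits used for skin. They numbered 7, 11 and 2 in SARAWT vehicle 1 to 3, 1, 2 and 1 in SARAWT aristolochic acid 1 to 3, 23 and 14 in SARATg vehicle 1 and 2, and 2 in SARATg aristolochic acid 1. Together they held 5 UMIs of Il5, 17 of Il13, 129 of Il1rl1, 267 of Il7r, 211 of Gata3, 88 of Icos, 110 of Rora, 38 of Il17rb and 3 of Il18r1, so the IL-25 receptor gene outnumbered the IL-18 receptor gene, the reverse of the skin cells. Of their 228 Calca UMIs, 208 came from SARATg vehicle 2. Only 3 libraries had 10 or more of these cells, and no test was made. The keratin list leaves out skin keratinocytes, and neither kidney tubule genes nor Ptprc were read in these cells. Icos stood at 97.1, 456 and 123 CPM in SARAWT vehicle 2 and SARATg vehicle 1 and 2, against 1504 CPM in the skin lymphoid cells. Whether the kidney cells are lymphocytes was not tested, so the receptor order may not compare like cells.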

How the results depend on the processing

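The difference in share kept its sign under every other cell filter, threshold and denominator of kept or Ptprc-positive cells, from -0.134 to -0.804 points, and was -0.0550 points with lymphoid cells alone. It turned to 0.0507 points without SARAWT bleomycin 2, 0.188 without SARAWT bleomycin 1, 0.251 without SARAWT PBS 3 and 0.856 without the libraries labelled SARAWT PBS 1 and PBS 3 together, a range of -0.978 to 0.251 over single libraries left out. As a share of members plus T cells it was -25.8 points. Between SARAWT bleomycin and PBS, the 0 called genes became 6 with DESeq2, 93 with no filter on low counts, 39 with other-lineage cells left out of the members and 1 with lymphoid cells alone, and stayed at 0 with each library left out and in the other settings. Replicate numbers are shared by the labels but not said to mark anything common. Only number 3 has at least 10 members in both groups, so the replicate block could not be fitted there, and with at least 5 cells and the replicate block edgeR called 0 (466 at an unadjusted p under 0.05). For the share, the replicate block gave -0.246 points (exact sign-flip p = 1.0).

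Against γδ T cells, the 2332 calls became 2658 with DESeq2, 1857 with no library block, 1485 with at least 20 cells, 967 with at least 3 scored UMIs, 498 with other-lineage cells left out of the members, 511 with them left out of both cell types, 519 without the libraries labelled SARAWT PBS 1 and PBS 3, 403 with both of those removals and 502 with lymphoid cells alone. With single libraries left out they ran from 977 (SARATg bleomycin 1) to 2551 (SARAWT bleomycin 3), with 1657 without the library labelled SARAWT PBS 1, 1544 without that labelled SARAWT PBS 3, 1485 without SARAWT bleomycin 2 and 1398 without SARATg PBS 1. Against αβ T cells, the 867 calls became 1426 with DESeq2, 1443 with no filter, 1364 without shared barcodes, 732 with no library block, 331 with at least 20 cells, 266 with at least 3 scored UMIs, 378 and 308 with other-lineage cells left out of the members and of both types, 334 without the libraries labelled SARAWT PBS 1 and PBS 3, 130 without them and without other-lineage cells, and 130 with lymphoid cells alone. With single libraries left out they ran from 259 (SARATg PBS 1) to 1186, with 791 without the library labelled SARAWT PBS 1, 431 without that labelled SARAWT PBS 3, 444 without SARAWT bleomycin 2 and 299 without SARATg bleomycin 1. With other-lineage cells left out of both types, single libraries left out gave 164 to 640 calls against γδ T cells (212 without SARAWT bleomycin 3, 352 without SARATg PBS 1 and 383 without SARATg bleomycin 1) and 115 to 295 against αβ T cells (184 without SARATg bleomycin 1), alternatives chosen after seeing the data. The part called higher fell from 58.1% to 42.0%, 50.1% and 46.8% against γδ T cells, and from 67.1% to 42.3%, 49.0% and 50% against αβ T cells, with other-lineage cells left out of the members, of both types, and with lymphoid cells alone. Lgals7 (-3.05) and Krt10 (-0.354) changed sign in lymphoid cells alone, which the keratin limit, with Krt10 in its list, helped to set. Of the single values under these alternatives, 1476 kept their direction and side of the threshold, 57 passed it newly, 60 no longer passed it and 2 reversed. The cause of these changes was not tested beyond the cells, libraries or genes each setting removes.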
